A study of Homo sapiens with 9 samples.

Results

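The transcripts described here are those of 8 cell surface adhesion molecules in U87 cells, a human glioblastoma line: VCAM1, ICAM1, ALCAM, MCAM, NCAM1, L1CAM, CD24 and CD44. They were taken from the deposited count table by gene symbol, and all 8 were found among its 58735 genes and all 8 passed the filter on low counts that left 16874 genes for testing. Bulk RNA sequencing compared 3 groups of U87 cells, each carrying a stable construct and each with 3 libraries. IDH1mt cells overexpressed isocitrate dehydrogenase 1 with the R132H mutation found in gliomas. C269S cells overexpressed the same R132H mutant with a cysteine replaced by serine. PCDH cells carried the empty vector of that name, which has no relation to the protocadherin genes. Per the design text, the comparison concerns autopalmitoylation of the mutant enzyme. No group here overexpressed IDH1 without the R132H mutation, so an effect of the mutation and of extra IDH1 protein cannot be told apart. Whether a group was a pool or a single clone, and whether its libraries came from separate cultures, is not given in the sources at hand. The p-values below therefore rest on how much these libraries vary, and that variation may be technical.

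Adhesion molecules hold cells to each other and to the matrix and pass signals inward. VCAM1 and ICAM1 are ligands of leukocyte integrins, and inflammatory signals acting through NF-kB switch them on in endothelium and in many tumour cells. ALCAM, MCAM, NCAM1 and L1CAM belong to the same immunoglobulin superfamily and mostly bind like molecules or neural partners. CD24 is a small, heavily glycosylated protein on a lipid anchor that binds P-selectin and Siglec-10. CD44 is the main receptor for the matrix sugar hyaluronan and is abundant in mesenchymal glioblastoma cells.

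Promoter windows were looked up because NF-kB sites upstream of VCAM1 and ICAM1 are textbook examples, while the transcripts of these genes differed between groups in unlike ways. RefSeq windows on GRCh38.p14 were at hand for 7 of the 8 genes, as 10 windows of 300 bases each, from 250 bases before a start site to 50 after it. The 250 bases before the start site are shown for VCAM1 and CD24, whose folds were the widest of the 8, for ICAM1 as the relative of VCAM1, and for CD44 as the most abundant. They lie at chr1:100719492-100719741 on the plus strand (VCAM1), chr6:106975628-106975877 on the minus strand (CD24), chr19:10270870-10271119 on the plus strand (ICAM1) and chr11:35138921-35139170 on the plus strand (CD44). Capitals mark matches, on either strand, to GGGNNNNCCC, an NF-kB-like pattern, and to ACGTG and GCGTG, the cores of hypoxia response elements.
VCAM1: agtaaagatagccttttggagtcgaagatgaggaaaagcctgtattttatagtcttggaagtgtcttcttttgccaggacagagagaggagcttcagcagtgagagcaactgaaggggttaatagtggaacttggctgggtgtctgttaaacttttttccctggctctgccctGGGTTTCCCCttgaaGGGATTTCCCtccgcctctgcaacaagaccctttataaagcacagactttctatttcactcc
CD24: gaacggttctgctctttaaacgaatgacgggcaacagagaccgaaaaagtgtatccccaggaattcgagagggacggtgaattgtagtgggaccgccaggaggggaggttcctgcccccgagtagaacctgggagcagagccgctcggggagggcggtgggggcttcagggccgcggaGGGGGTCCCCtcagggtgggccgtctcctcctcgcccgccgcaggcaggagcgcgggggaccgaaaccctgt
ICAM1: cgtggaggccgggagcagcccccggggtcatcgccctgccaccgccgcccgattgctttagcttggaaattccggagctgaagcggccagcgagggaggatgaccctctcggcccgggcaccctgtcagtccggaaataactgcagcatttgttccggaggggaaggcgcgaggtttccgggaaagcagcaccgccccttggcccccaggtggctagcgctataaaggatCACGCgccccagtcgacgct
CD44: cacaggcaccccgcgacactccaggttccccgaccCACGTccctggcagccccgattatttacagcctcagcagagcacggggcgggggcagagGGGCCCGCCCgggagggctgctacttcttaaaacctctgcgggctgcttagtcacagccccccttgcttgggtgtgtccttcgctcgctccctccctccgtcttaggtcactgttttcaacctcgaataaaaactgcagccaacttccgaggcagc
The VCAM1 window held GGGNNNNCCC at 2 places, 77 to 68 and 62 to 53 bases before the start site. That pattern was present in 17.8% of the 34943 promoter windows of 300 bases in the same table. In the CD24 window shown it occurred once, as GGGGGTCCCC, and in the CD44 window once, as GGGCCCGCCC. Of the windows not shown, MCAM held it at 3 places, the second CD24 window at 2 and each of the 2 L1CAM windows at 1, while ALCAM and the third CD24 window did not hold it. The letters of GGGNNNNCCC are not in the ICAM1 window, but the pattern does not cover every NF-kB site, the known one of ICAM1 included, so nothing follows for NF-kB there. ACGTG, found in 21.4% of all windows, was marked once in CD44, and GCGTG, found in 36.5%, once in ICAM1. GCGTG also lay at 2 places in the ALCAM window and 1 in the third CD24 window, which are not shown. These matches describe letters and do not show that any factor was bound.

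The libraries held 19108925 to 24803711 counted reads each. IDH1 averaged 677 ± 16.5 CPM in IDH1mt, 739 ± 30.3 CPM in C269S and 111 ± 7.97 CPM in PCDH libraries (counts scaled to library size by TMM, SD, n = 3 each) and was higher in both groups with the mutant, as labelled. PCDH replicate 3 stood apart from the other PCDH libraries, with a chi-square per degree of freedom of 10.3 or more against replicates 1 and 2, where other pairs within a group gave 3.68 to 6.37. Results that rest on it are given below with and without it. Of 9 markers of glioma cells and astrocytes, 4 averaged under 1 CPM over the 9 libraries: S100B, SOX2, ALDH1L1 and AQP4, the last with no read in any library. VIM, NES, SOX9, OLIG2 and GFAP were present, with VIM at 2700 CPM and GFAP at 4.01 CPM in IDH1mt cells. Since these are bulk libraries, fewer cells with a transcript and less RNA per cell cannot be told apart.

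On a per-length scale, CD44 stood far above the other members and VCAM1 at the bottom. In the deposited FPKM values (fragments scaled by gene length and library size), CD44 averaged 339.3 ± 3.48 in IDH1mt libraries, which put it at rank 63 of 19951 protein-coding genes. VCAM1 averaged 0.166 FPKM there, at rank 12812. Between them in IDH1mt cells came ALCAM at 36.0, MCAM at 21.1, ICAM1 at 10.0, CD24 at 7.91, NCAM1 at 2.71 and L1CAM at 0.880 FPKM, and neighbours in this order did not overlap in any of the 3 libraries. In C269S cells the order was the same, with CD24 at 4.71 FPKM and NCAM1 at 3.42 FPKM, and again no neighbours overlapped. In PCDH cells CD24, at 2.10 FPKM, stood below NCAM1, at 3.52 FPKM. L1CAM and VCAM1, at 0.505 and 0.445 FPKM in PCDH cells, overlapped there across libraries, though L1CAM was above VCAM1 within each of them. CD24 spanned the widest stretch of the ranking among the 8, at rank 4758 in IDH1mt cells, 6648 in C269S cells and 9085 in PCDH cells.

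**Figure D1:**
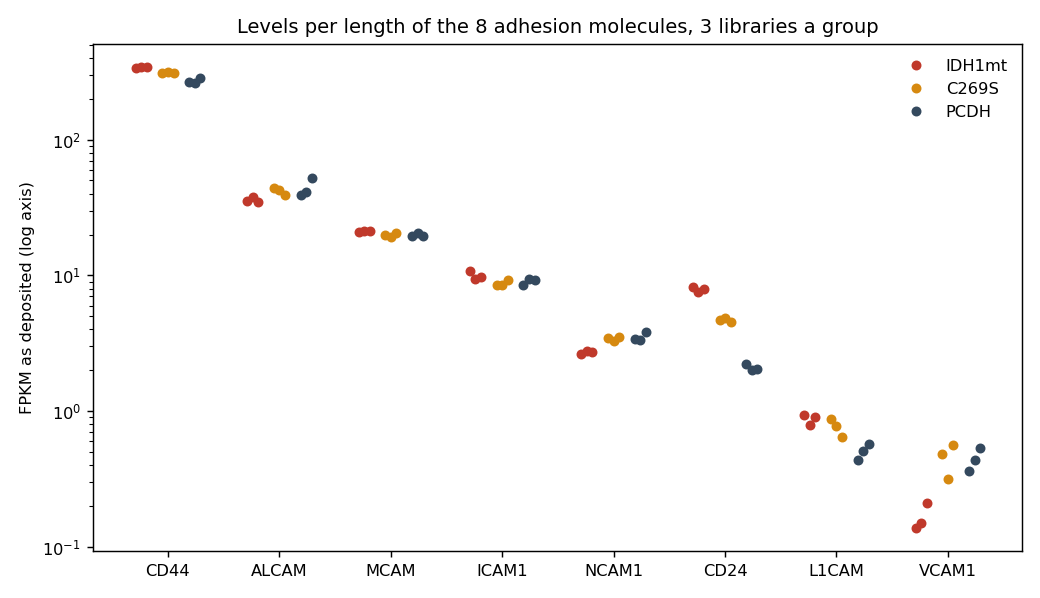
Deposited FPKM (log axis) of the 8 adhesion molecules in each of the 9 libraries, coloured by group, with the genes in order of level in PCDH cells. CD44 lies near 300 FPKM in every group while VCAM1 stays under 1 FPKM, and CD24 is the member whose 3 groups lie furthest apart without overlap.

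The 8 genes were chosen by their levels and fold changes in these same comparisons, so their own differences are described here without p-values. A member's call (an adjusted p under 0.05), or its loss under an alternative, likewise describes the fit and is not a test of that gene. Of the 8, 6 passed an adjusted p under 0.05 in edgeR in IDH1mt against PCDH, 3 higher and 3 lower, where 14.1% of all genes tested passed (7.18% higher and 6.9% lower). In C269S against PCDH 2 of the 8 passed, both higher, where 1.42% of all genes did (0.883% higher and 0.533% lower). In C269S against IDH1mt 3 passed, 2 higher and 1 lower, where 4.9% of all genes did (2.29% higher and 2.61% lower). The median log2 fold change of the 8 was 0.11, 0.01 and -0.10 in these 3 comparisons, and the median of its absolute value was 0.35, 0.07 and 0.21, where all genes tested had 0.17, 0.12 and 0.13. The libraries of 2 groups did not overlap for 7 of the 8 in IDH1mt against PCDH, 3 in C269S against PCDH and 7 in C269S against IDH1mt, where 29.2% (14.3% higher and 14.9% lower), 15.2% (7.62% higher and 7.57% lower) and 23.6% (11.8% in each direction) of all genes did not. Nothing is read from these counts, since the choice of the genes used them. Each pair of comparisons also shares a group of libraries, so the 3 folds of a gene are given side by side and are not independent.

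**Figure D2:**
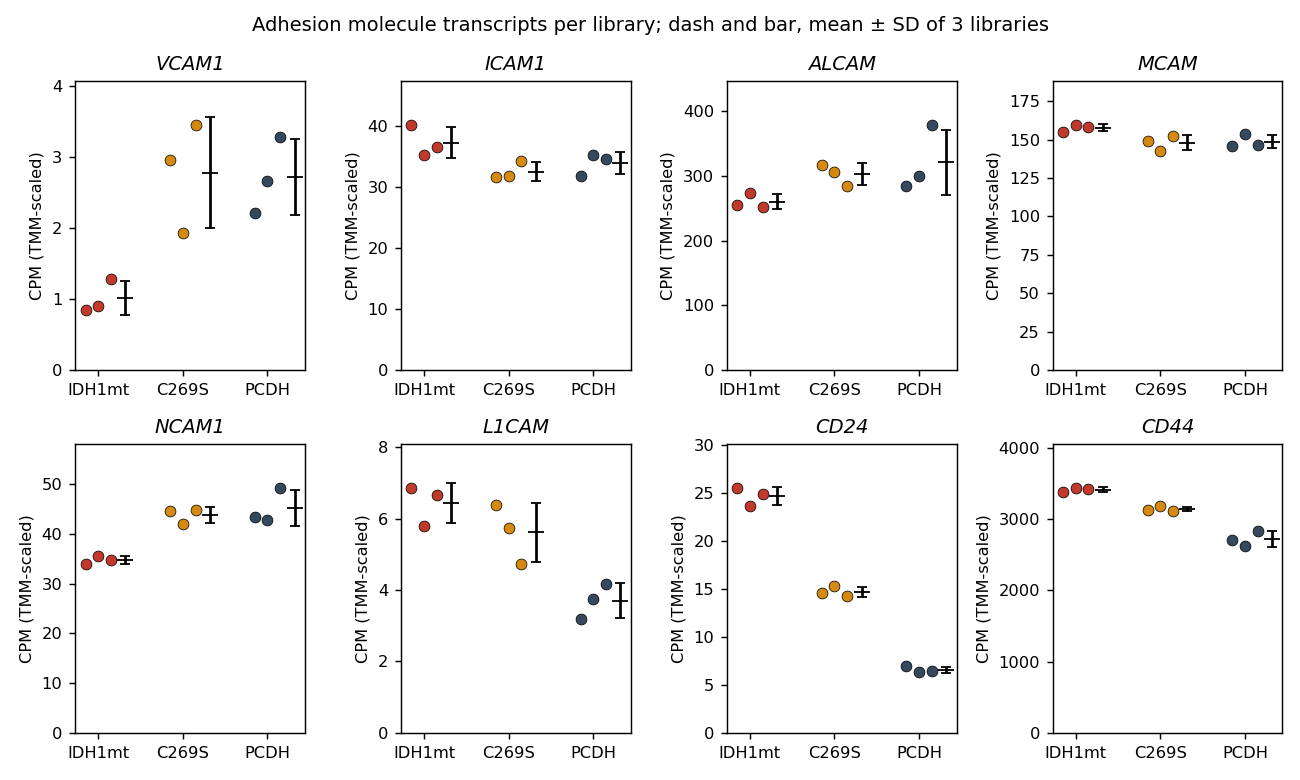
TMM-scaled CPM of each adhesion molecule in every library, with the groups IDH1mt, C269S and PCDH from left to right and the mean ± SD of 3 libraries beside the points. CD24 forms 3 separate steps, VCAM1 is low in the IDH1mt libraries only, and ICAM1 and MCAM lie at nearly one level.

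VCAM1, the integrin ligand that captures lymphocytes and monocytes on inflamed vessels, was lower in IDH1mt cells than in either other group. It is encoded by ENSG00000162692 on chromosome 1 at 100719742 to 100739045, plus strand (GRCh38, as for all coordinates of genes here). Its raw counts were 20, 22 and 24 reads in the IDH1mt libraries, 58, 38 and 75 in the C269S libraries and 45, 63 and 74 in the PCDH libraries. Scaled for depth, these were 0.842, 0.906 and 1.29 CPM in IDH1mt, 2.96, 1.92 and 3.45 CPM in C269S, and 2.21, 2.66 and 3.28 CPM in PCDH cells. All 3 IDH1mt libraries lay below all 6 others, while C269S and PCDH overlapped. Group means were 1.01 ± 0.240 CPM in IDH1mt, 2.78 ± 0.777 CPM in C269S and 2.72 ± 0.538 CPM in PCDH (SD, n = 3 each). The log2 fold change was -1.44 (SE 0.31) in IDH1mt against PCDH, a 2.71-fold lower level, and 0.03 (SE 0.28) in C269S against PCDH. In C269S against IDH1mt it was 1.47 (SE 0.31), a 2.77-fold higher level. A larger absolute fold was held by 1.27% of all genes tested in IDH1mt against PCDH and by 0.634% in C269S against IDH1mt. These shares describe a gene chosen by its folds, and nothing is read from them.

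The depth behind VCAM1 is small, with 66 reads over the 3 IDH1mt libraries. Its coefficient of variation there was 23.8%, where counting error alone gives 21.3%, and 28.0% and 19.8% in C269S and PCDH cells, where counting gives 13.2% and 12.8%. Without PCDH replicate 3, the fold was -1.28 in IDH1mt against PCDH and 0.19 in C269S against PCDH. VCAM1 was called (an adjusted p under 0.05) in C269S against IDH1mt, but not by limma on log2 of FPKM plus 1, where the pseudocount is above the gene's own FPKM and the fold was 0.32. Endothelial cells also carry VCAM1, and the summed level of 8 of their markers was 22.2 to 23.5 CPM in IDH1mt, 24.6 to 27.7 CPM in C269S and 28.5 to 30.1 CPM in PCDH libraries. Of these markers, 5 of 8 averaged under 1 CPM over the 9 libraries, CDH5 never exceeded 17 reads and CLDN5 never exceeded 5 reads in a library. The lower sum in IDH1mt cells came from KDR, at 9.58, 13.7 and 16.6 CPM in IDH1mt, C269S and PCDH, and TEK, at 4.05, 4.04 and 5.57 CPM. PECAM1 (6.84, 5.98 and 5.76 CPM), VWF (1.11, 1.17 and 0.719 CPM), ERG (0.793, 0.968 and 0.502 CPM) and CDH5 (0.429, 0.119 and 0.205 CPM) instead averaged more in IDH1mt than in PCDH libraries. The sum was also lower in C269S than in PCDH libraries, where the VCAM1 fold was 0.03. Their part in the VCAM1 result was not tested.

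ICAM1, the ligand of the leukocyte integrins LFA-1 and Mac-1 and the closest relative of VCAM1 in function, had nearly the same level in the 3 groups. It is encoded by ENSG00000090339 on chromosome 19 at 10270835 to 10286615, plus strand. The libraries gave 40.1, 35.2 and 36.5 CPM in IDH1mt, 31.5, 31.8 and 34.2 CPM in C269S, and 31.8, 35.2 and 34.6 CPM in PCDH cells. IDH1mt overlapped PCDH, C269S overlapped PCDH, and all 3 C269S libraries lay below all 3 IDH1mt libraries. The log2 fold change was 0.14 (SE 0.08) in IDH1mt against PCDH, -0.06 (SE 0.08) in C269S against PCDH and -0.20 (SE 0.08) in C269S against IDH1mt. ICAM1 was not among the genes called in any of these 3 comparisons.

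Because the pair differed in this way, the ratio of ICAM1 to VCAM1 in FPKM separated the IDH1mt libraries from the rest. The ratio was 77.8, 63.4 and 46.3 in IDH1mt, 17.4, 26.9 and 16.2 in C269S, and 23.5, 21.6 and 17.2 in PCDH libraries. Its mean was 62.5 ± 15.7 in IDH1mt, 20.2 ± 5.88 in C269S and 20.8 ± 3.22 in PCDH cells (SD, n = 3 each). The IDH1mt libraries did not overlap the others, and the spread within IDH1mt rests on the 66 VCAM1 reads of those libraries.

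**Figure D3:**
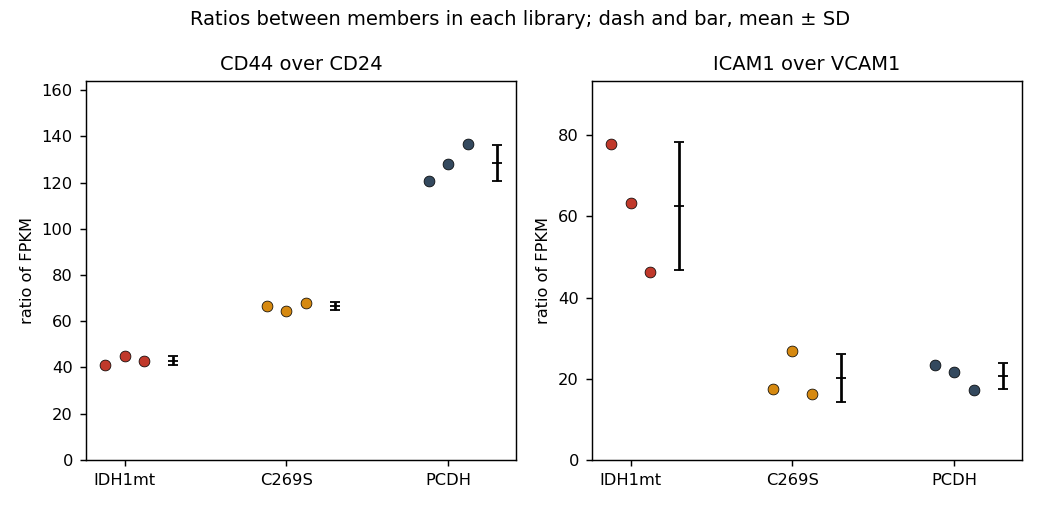
Ratios of FPKM within each library for CD44 over CD24 (left) and ICAM1 over VCAM1 (right), with IDH1mt, C269S and PCDH from left to right and the mean ± SD of 3 libraries beside the points. CD44 over CD24 takes a separate level in each group, at means of 42.9, 66.4 and 129, while ICAM1 over VCAM1 is high in IDH1mt, at 62.5, and near 20 in C269S and PCDH.

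ALCAM, which binds itself on neighbouring cells and CD6 on T cells, was lower in IDH1mt cells by a small margin. Its gene, ENSG00000170017, lies on chromosome 3 at 105366909 to 105576900, plus strand. It had 256, 274 and 251 CPM in IDH1mt, 317, 306 and 284 CPM in C269S, and 284, 299.9 and 378 CPM in PCDH cells. The IDH1mt libraries lay below all others, and the highest value of all came from PCDH replicate 3. For ALCAM the log2 fold change was -0.30 (SE 0.08) in IDH1mt against PCDH, -0.08 (SE 0.08) in C269S against PCDH and 0.22 (SE 0.08) in C269S against IDH1mt. Without PCDH replicate 3, the fold in IDH1mt against PCDH shrank to -0.17 and that in C269S against PCDH was 0.05, with the opposite sign. The call in IDH1mt against PCDH was lost without IDH1mt replicate 3, where the fold was -0.28, and by limma on log2 of FPKM plus 1 and plus 0.1, at folds of -0.28 and -0.29. In C269S against IDH1mt, ALCAM was called without PCDH replicate 3, with no filter on low counts and with the 6 libraries alone, at folds of 0.22, 0.23 and 0.22.

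NCAM1, the neural cell adhesion molecule that binds itself and carries polysialic acid, was, like VCAM1, lower in IDH1mt cells than in either other group, by a smaller fold. Its gene, ENSG00000149294, lies on chromosome 11 at 112961247 to 113278436, plus strand, and has no entry among the promoter windows used here. NCAM1 had 34.0, 35.5 and 34.8 CPM in IDH1mt, 44.6, 42.0 and 44.9 CPM in C269S, and 43.5, 42.9 and 49.3 CPM in PCDH cells. All IDH1mt libraries lay below all others, and C269S and PCDH overlapped. In log2 terms the fold was -0.38 (SE 0.08) in IDH1mt against PCDH, a 1.30-fold lower level, -0.05 (SE 0.08) in C269S against PCDH, and 0.33 (SE 0.08) in C269S against IDH1mt, a 1.26-fold higher level. Without PCDH replicate 3 the first of these was -0.31 and the second 0.02. The call in C269S against IDH1mt was lost without IDH1mt replicate 1 and without C269S replicate 1, at folds of 0.32 and 0.32, and by limma on log2 of FPKM plus 1 and plus 0.1, at 0.25 and 0.32. An antisense gene, AP000802.1, overlaps NCAM1 with 8 to 23 reads per IDH1mt library and 8 to 17 per PCDH library.

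L1CAM, a neural molecule that drives axon growth and is found on many invasive tumours, was higher in IDH1mt cells at a low level. Its gene, ENSG00000198910, lies on chromosome X at 153861514 to 153886174, minus strand. The counts were 163, 141 and 124 reads in IDH1mt, 125, 113 and 103 in C269S, and 65, 89 and 94 in PCDH libraries. In CPM these were 6.86, 5.80 and 6.65 in IDH1mt, 6.38, 5.72 and 4.73 in C269S, and 3.20, 3.75 and 4.17 in PCDH cells. Every IDH1mt and every C269S library lay above every PCDH library, while IDH1mt and C269S overlapped. On the log2 scale the fold was 0.79 (SE 0.18) in IDH1mt against PCDH, a 1.73-fold higher level, 0.59 (SE 0.19) in C269S against PCDH and -0.20 (SE 0.18) in C269S against IDH1mt. Without PCDH replicate 3, the folds against PCDH were 0.88 for IDH1mt and 0.68 for C269S, and only then did C269S against PCDH pass among the alternatives that left out a library.

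MCAM, a receptor of vessel walls and melanoma cells that binds laminin with the alpha-4 chain, differed least. Its gene, ENSG00000076706, lies on chromosome 11 at 119308529 to 119321521, minus strand. MCAM had 155, 159 and 158 CPM in IDH1mt, 149, 143 and 153 CPM in C269S, and 146, 153 and 147 CPM in PCDH cells. The IDH1mt libraries were all above the others, yet by a log2 fold change of only 0.08 (SE 0.06) against PCDH. C269S differed by -0.01 (SE 0.06) from PCDH and by -0.09 (SE 0.06) from IDH1mt, and MCAM was not called in any of the 3 comparisons. CBL overlaps MCAM by 5398 bases on the other strand, with 1686 to 2416 reads per IDH1mt library and 1553 to 1949 per PCDH library, and the strand setting of the counting is not given in the sources at hand.

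CD24, the glycoprotein that Siglec-10 on macrophages reads as a signal not to engulf the cell, had the widest upward fold of the 8, in 3 steps. It is encoded by ENSG00000272398 on chromosome 6 at 106969831 to 106975627, minus strand. Raw counts were 606, 573 and 463 reads in IDH1mt, 285, 301 and 309 in C269S, and 141, 150 and 145 in PCDH libraries. In CPM these were 25.5, 23.6 and 24.8 in IDH1mt, 14.5, 15.2 and 14.2 in C269S, and 6.93, 6.32 and 6.43 in PCDH cells. No library of any group overlapped another group, and the C269S libraries lay between the others. Means were 24.6 ± 0.970 CPM in IDH1mt, 14.7 ± 0.534 CPM in C269S and 6.56 ± 0.325 CPM in PCDH (SD, n = 3 each). The spread within groups was no wider than counting error, with a coefficient of variation of 3.94%, 3.64% and 4.95% in IDH1mt, C269S and PCDH, where counting alone gives 4.27%, 5.79% and 8.30%.

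The log2 fold change of CD24 was 1.91 (SE 0.11) in IDH1mt against PCDH, a 3.76-fold higher level. In C269S against PCDH it was 1.16 (SE 0.12), a 2.24-fold higher level. In C269S against IDH1mt it was -0.75 (SE 0.10), a 1.68-fold lower level. A larger absolute fold was held by 0.450% of all genes tested in IDH1mt against PCDH, which again describes a gene chosen on this measure. Without PCDH replicate 3 these folds were 1.90, 1.15 and -0.75. CD24 has near-identical copies, so the gene's count is uncertain where reads match several places, and the 3 annotated CD24 pseudogenes in the table held 12 reads in all.

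CD44, the hyaluronan receptor, was among the most abundant transcripts of these cells and was higher in IDH1mt and C269S cells by a small margin. Its gene, ENSG00000026508, lies on chromosome 11 at 35138870 to 35232402, plus strand. The libraries held 80195, 83551 and 63911 CD44 reads in IDH1mt, 61389, 62791 and 67848 in C269S, and 55035, 62124 and 63984 in PCDH cells. In CPM these were 3375, 3439 and 3425 in IDH1mt, 3134, 3180.5 and 3117 in C269S, and 2706, 2619 and 2838 in PCDH cells. The 3 groups did not overlap, with C269S between the others as for CD24. Means were 3413 ± 34.0 CPM in IDH1mt, 3144 ± 32.8 CPM in C269S and 2721 ± 110.4 CPM in PCDH (SD, n = 3 each).

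The log2 fold change of CD44 was 0.33 (SE 0.05) in IDH1mt against PCDH, a 1.25-fold higher level, 0.21 (SE 0.05) in C269S against PCDH and -0.12 (SE 0.05) in C269S against IDH1mt. Without PCDH replicate 3, the folds were 0.36, 0.24 and -0.12. The call in C269S against PCDH was lost without PCDH replicate 1 (fold 0.20), PCDH replicate 2 (0.18), C269S replicate 1 (0.21) and C269S replicate 2 (0.20), and also with the 6 libraries of the comparison alone. Gene counts do not separate the splice forms of CD44, the standard form and the variant forms of epithelial and stem-like cells. ESRP1, which promotes splicing to the variant forms in epithelia, had at most 3 reads in a library. Its relative ESRP2, named after its values were seen, averaged 0.840, 0.973 and 0.514 CPM in IDH1mt, C269S and PCDH cells. It was not called in either group against PCDH.

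Since CD24 moved more than CD44, the ratio of CD44 to CD24 in FPKM took a separate level in each group. It was 41.0, 45.1 and 42.7 in IDH1mt, 66.7, 64.6 and 68.0 in C269S, and 121, 128 and 137 in PCDH libraries. The means were 42.9 ± 2.09 in IDH1mt, 66.4 ± 1.71 in C269S and 129 ± 7.89 in PCDH cells (SD, n = 3 each). In every library CD44 thus exceeded CD24 by more than 40 times per length. Summed levels of markers of other cell types were compared in the same way. The summed level of 8 leukocyte markers was 17.2 to 19.4 CPM in IDH1mt, 11.3 to 15.2 CPM in C269S and 9.45 to 11.7 CPM in PCDH libraries. Nearly all of it was CSF1R, at 16.1, 11.2 and 8.74 CPM in these groups, while CD3E had no read in any library and 7 of the 8 averaged under 1 CPM. The 7 markers of fibroblasts and mesenchymal cells, led by COL1A2 and COL1A1, summed to 2329 to 2469 CPM in IDH1mt, 2751 to 3011 CPM in C269S and 3687 to 3858 CPM in PCDH libraries. COL1A1, COL1A2, DCN and FAP each averaged least in IDH1mt and most in PCDH libraries, as the sum did. LUM (17.66, 15.98 and 15.03 CPM in IDH1mt, C269S and PCDH) and THY1 (0.543, 0.325 and 0.201 CPM) instead went the other way. PDGFRB averaged most in C269S, at 183, 209 and 198 CPM in the same order. The 8 epithelial markers summed to 3.79 to 5.19 CPM in IDH1mt, 3.83 to 5.10 CPM in C269S and 3.46 to 4.42 CPM in PCDH libraries, with 7 of 8 averaging under 1 CPM. The 6 neuron markers summed to 69.9 to 79.2, 68.7 to 76.8 and 62.4 to 69.5 CPM in the same groups, led by SNAP25. The epithelial sums overlapped across all 3 groups. The neuron sums of C269S overlapped those of both IDH1mt and PCDH, while IDH1mt and PCDH did not overlap. The part of these markers in the results for the 8 adhesion molecules was not tested.

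**Figure D4:**
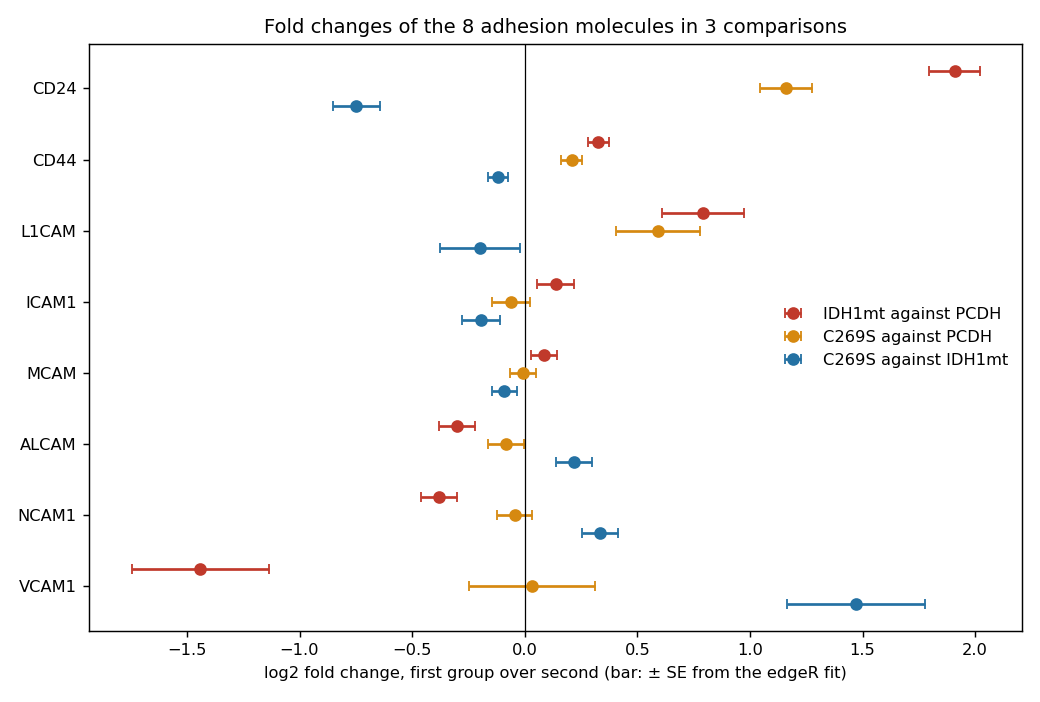
Log2 fold changes of the 8 adhesion molecules (x axis, first-named group over second) in IDH1mt against PCDH, C269S against PCDH and C269S against IDH1mt, with bars of ± 1 SE from the edgeR fit. CD24 lies at 1.91 and VCAM1 at -1.44 in IDH1mt against PCDH, whereas C269S against PCDH keeps CD24 at 1.16 and VCAM1 at 0.03.

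Across the 9 libraries CD24, CD44 and L1CAM varied together, given here as a description, since the libraries share their groups. Log2 CPM of CD24 and CD44 had a Pearson r of 0.98, L1CAM and CD44 of 0.91, and L1CAM and CD24 of 0.90. VCAM1 and NCAM1 had an r of 0.95 and ALCAM and NCAM1 of 0.86, while VCAM1 and ALCAM had an r of 0.71. NCAM1 and CD24 had an r of -0.82, and VCAM1 and CD24 of -0.74.

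For the 3 leading members, the 5 protein-coding genes with the highest Pearson r over the 9 libraries were listed from the 11608 genes whose mean log2 CPM was 1 or more. For CD24 they were PI3, a protease inhibitor of epithelia also called elafin (r 0.99), HS3ST3B1, a heparan sulfate sulfotransferase (0.99), BDKRB2, a bradykinin receptor (0.99), NMNAT2, an enzyme of NAD synthesis (0.98), and NEDD4L, a ubiquitin ligase (0.98). PI3 averaged 4185 CPM in IDH1mt, 2810.5 CPM in C269S and 1377 CPM in PCDH cells, and so took the same 3 steps as CD24. For CD44 they were LHFPL2, a tetraspan membrane protein (0.99), HS3ST3B1 (0.99), FARP1, a guanine nucleotide exchange factor (0.99), SPOCK1, a proteoglycan (0.98), and SQLE, squalene epoxidase of cholesterol synthesis (0.98). HS3ST3B1 stood in both lists, at 117, 89.8 and 58.5 CPM in IDH1mt, C269S and PCDH cells. For VCAM1 they were CTGF, a secreted matrix-associated protein (0.98), H2AFX, a histone variant (0.97), KIF22, a mitotic motor (0.97), PELO, a ribosome rescue factor (0.96), and MOK, a protein kinase (0.96). CTGF averaged 20.3 CPM in IDH1mt, 35.0 CPM in C269S and 37.4 CPM in PCDH cells. These r values are the highest among 11608 genes, and libraries of a group share its mean, so they only describe likeness.

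The genes around these molecules were taken as 5 lists of 144 genes in all, of which 97 passed the filter and 47 did not. In IDH1mt against PCDH, 15 of the 97 rose and 10 fell by edgeR's quasi-likelihood test with Benjamini-Hochberg adjustment over all genes, which is 25.8%, where 14.1% of all genes tested passed. These 97 had a median log2 fold change of 0.07, where all genes tested had -0.01. Among the lists are the binding partners of the 8 molecules, other immunoglobulin-superfamily molecules, cadherins, hyaluronan genes and NF-kB feedback genes. The 5 lists were chosen with earlier results of these data known, and that choice may have raised their shares of called genes. Nothing is therefore read from these shares beside those of all genes, here or in the comparisons below. The adjusted p-values of list genes likewise describe the fit and are not independent tests of genes chosen beforehand.

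**Figure D5:**
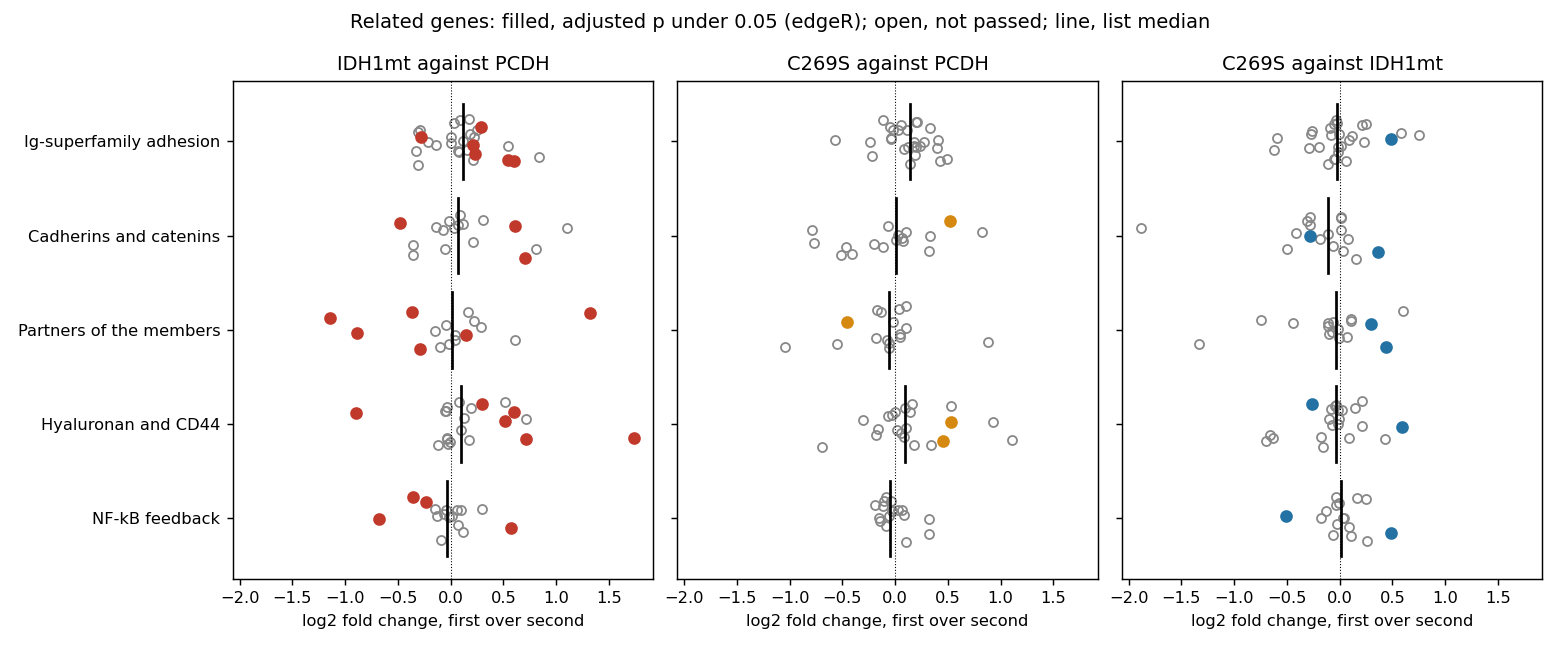
Log2 fold changes (x axis, first-named group over second) of the 97 tested genes of 5 related lists in the 3 comparisons, with filled points for genes past an adjusted p of 0.05 in edgeR, open points for the others and a line at each list's median. IDH1mt against PCDH has 25 filled points on both sides of 0, C269S against PCDH has 4 and C269S against IDH1mt has 9.

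Among partners of the 8 molecules, 16 of 23 genes were tested. In IDH1mt against PCDH, 2 rose, 4 fell and 10 did not pass, with a median log2 fold change of 0.02. The share called was 37.5%, where it was 14.1% of all genes tested. LAMA4, the laminin chain that MCAM binds, fell to 24.8 ± 0.459 CPM in IDH1mt cells, against 45.9 ± 1.92 CPM in PCDH cells (log2 fold -0.89, SE 0.09, adjusted p = 3.8e-09 in edgeR). ST8SIA4, a sialyltransferase that adds polysialic acid to NCAM1, fell to 3.49 ± 0.470 CPM, against 7.69 ± 1.21 CPM (-1.14, SE 0.18, adjusted p = 2.6e-05 in edgeR). ITGAX, the alpha chain of a leukocyte integrin that can bind ICAM1, fell to 80.5 ± 2.06 CPM, against 104 ± 14.3 CPM (-0.36, SE 0.07, adjusted p = 8e-04 in edgeR). ITGB2, the beta chain of that integrin, was barely read, at 0.738 ± 0.346 CPM in IDH1mt and 0.612 ± 0.241 CPM in PCDH cells. EZR, ezrin, which ties the tail of CD44 to actin, fell to 51.4 ± 2.16 CPM, against 62.8 ± 4.04 CPM (-0.29, SE 0.07, adjusted p = 0.0073 in edgeR). Among those that rose was MSN, moesin, a relative of ezrin named after its values were seen, at 844 and 764 CPM in IDH1mt and PCDH cells (0.14, SE 0.05, adjusted p = 0.046 in edgeR).

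The integrin chains that make the VCAM1 receptor VLA-4 did not pass, as named after their values were seen. ITGA4 averaged 8.27 ± 1.12 CPM in IDH1mt and 7.13 ± 0.620 CPM in PCDH cells (adjusted p = 0.38 in edgeR). ITGB1 averaged 2074 ± 16.1 CPM in IDH1mt and 2013 ± 210.5 CPM in PCDH cells (adjusted p = 0.69 in edgeR). SIGLEC10, the receptor for CD24, averaged 1.28 ± 0.136 CPM in IDH1mt and 1.28 ± 0.606 CPM in PCDH cells (adjusted p = 0.99 in edgeR). The selectins that bind CD24 and CD44 on vessel walls were nearly unread, with 3 reads of SELP and 1 of SELE over all 9 libraries. The EZR call was lost without PCDH replicate 1 and without IDH1mt replicate 1 (adjusted p = 0.057 and 0.059 in edgeR). The count of partners that rose was 1 without PCDH replicate 1 or 2, IDH1mt replicate 1 or 3, or C269S replicate 1 or 2. Without IDH1mt replicate 2 it was 0 in edgeR, where 2 had an unadjusted p under 0.05, and DESeq2 on all libraries called 2.

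Among other immunoglobulin-superfamily adhesion molecules, 27 of 44 were tested, and in IDH1mt against PCDH 5 rose, 1 fell and 21 did not pass, with a median of 0.11. That is 22.2% called, beside 14.1% of all genes tested. CADM1, which joins neighbouring cells and synapses, rose to 14.5 ± 0.888 CPM in IDH1mt cells, against 9.55 ± 0.386 CPM in PCDH cells (log2 fold 0.60, SE 0.12, adjusted p = 0.00062 in edgeR). CD47, like CD24 a surface signal against engulfment, rose to 246 ± 4.80 CPM, against 209 ± 12.7 CPM (0.23, SE 0.06, adjusted p = 0.0045 in edgeR). IGSF8, a partner of tetraspanins, rose to 148 ± 4.11 CPM, against 121 ± 13.2 CPM (0.29, SE 0.07, adjusted p = 0.0046 in edgeR). VSIR and JAM3, outside the naming rule, were the other genes that rose (adjusted p = 0.017 and 0.039 in edgeR). ICAM5, a neuronal relative of ICAM1, fell to 134 ± 5.78 CPM, against 163 ± 14.6 CPM (-0.28, SE 0.07, adjusted p = 0.0049 in edgeR). The ICAM5 call was lost without PCDH replicate 2 (adjusted p = 0.067 in edgeR). The count that rose was 3 without PCDH replicate 2 and 8 without PCDH replicate 3, and the count that fell was 2 without PCDH replicate 1 or 3. Over all genes, 917 rose without PCDH replicate 2 and 1574 without PCDH replicate 3, where 1211 rose with all libraries.

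Cadherins and catenins, the calcium-dependent junction molecules and their cytoplasmic partners, had 17 of 32 members tested. In IDH1mt against PCDH 2 rose, 1 fell and 14 did not pass, with a median of 0.07. That is 17.6% called, near the 14.1% of all genes tested. CDH13, a cadherin without a cytoplasmic tail, fell to 357 ± 11.5 CPM in IDH1mt cells, against 497 ± 10.4 CPM in PCDH cells (log2 fold -0.48, SE 0.05, adjusted p = 2.7e-08 in edgeR). CDH4, the retinal cadherin, rose to 30.8 ± 2.76 CPM, against 18.8 ± 1.13 CPM (0.71, SE 0.10, adjusted p = 6e-06 in edgeR). CDH11, a mesenchymal cadherin, rose to 17.6 ± 0.507 CPM, against 11.5 ± 0.334 CPM (0.61, SE 0.11, adjusted p = 0.00022 in edgeR). CDH1, the epithelial cadherin, never exceeded 3 reads in a library.

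Genes that make, break and bind hyaluronan, the ligand of CD44, or that process CD44 had 21 of 29 members tested. In IDH1mt against PCDH 5 rose, 1 fell and 15 did not pass, with a median of 0.10. That is 28.6% called, beside 14.1% of all genes tested. The hyaluronan synthases HAS1 and HAS2 moved in opposite directions. HAS1 rose to 590 ± 31.1 CPM in IDH1mt cells, against 389 ± 41.2 CPM in PCDH cells (log2 fold 0.60, SE 0.07, adjusted p = 3.2e-07 in edgeR). HAS2 fell to 26.4 ± 1.81 CPM, against 49.0 ± 3.59 CPM (-0.89, SE 0.10, adjusted p = 2.8e-08 in edgeR). CEMIP, which breaks hyaluronan down at the cell surface, rose to 366 ± 20.5 CPM, against 222 ± 4.26 CPM (0.72, SE 0.06, adjusted p = 2.8e-11 in edgeR). Its relative CEMIP2 rose to 27.1 ± 2.05 CPM, against 18.9 ± 2.02 CPM (0.52, SE 0.10, adjusted p = 0.00052 in edgeR). ADAM10, a protease that sheds CD44 and L1CAM, and STAB1, a hyaluronan scavenger receptor, were the other genes that rose, outside the naming rule (adjusted p = 8e-04 and 0.0041 in edgeR). ADAM10 averaged 238 ± 1.06 CPM in IDH1mt and 193 ± 14.1 CPM in PCDH cells.

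All 16 NF-kB feedback genes, inhibitors, subunits and targets of the pathway known for inducing VCAM1 and ICAM1, were tested. In IDH1mt against PCDH 1 rose, 3 fell and 12 did not pass, with a median of -0.03. That is 25% called, beside 14.1% of all genes tested. TNFAIP2, a target of tumour necrosis factor, rose to 132 ± 5.80 CPM in IDH1mt cells, against 88.4 ± 6.89 CPM in PCDH cells (log2 fold 0.58, SE 0.07, adjusted p = 1.5e-07 in edgeR). BIRC3, a ubiquitin ligase of the pathway, fell to 69.0 ± 2.13 CPM, against 110.6 ± 13.6 CPM (-0.68, SE 0.08, adjusted p = 2.5e-07 in edgeR). NFKB1, the subunit p50, fell to 54.7 ± 1.67 CPM, against 64.3 ± 3.42 CPM (-0.23, SE 0.07, adjusted p = 0.023 in edgeR). TRAF1, an adaptor, fell to 20.3 ± 3.25 CPM, against 26.0 ± 3.65 CPM, with groups that overlap (-0.36, SE 0.11, adjusted p = 0.030 in edgeR). The classical feedback inhibitors NFKBIA and TNFAIP3, named after their values were seen, averaged 160 ± 3.81 and 103 ± 2.47 CPM in IDH1mt and 169.9 ± 10.8 and 113 ± 6.07 CPM in PCDH cells (adjusted p = 0.37 and 0.22 in edgeR). Without PCDH replicate 1 or 2, or IDH1mt replicate 1 or 2, the count that fell was 1: NFKB1 had an adjusted p of 0.093, 0.085, 0.1 and 0.092 and TRAF1 of 0.14, 0.13, 0.14 and 0.18 in edgeR. The count that rose was 2 without IDH1mt replicate 3.

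In C269S against PCDH, 3 of the 97 genes rose, 1 fell and 93 did not pass, which is 4.12%, where 1.42% of all genes tested passed. The medians of the 5 lists lay between -0.06 and 0.14. HAS1 rose to 562 ± 46.2 CPM in C269S cells, against 389 ± 41.2 CPM in PCDH cells (log2 fold 0.53, SE 0.07, adjusted p = 2.3e-05 in edgeR). CEMIP rose to 305 ± 11.1 CPM, against 222 ± 4.26 CPM (0.45, SE 0.06, adjusted p = 3.4e-06 in edgeR). CDH4 rose to 27.0 ± 3.34 CPM, against 18.8 ± 1.13 CPM (0.52, SE 0.10, adjusted p = 0.0038 in edgeR). LAMA4 fell to 33.5 ± 3.25 CPM, against 45.9 ± 1.92 CPM (-0.45, SE 0.08, adjusted p = 0.0022 in edgeR). The count that rose was 9 without PCDH replicate 3, and the count that fell was 3 without PCDH replicate 3 or C269S replicate 3 and 2 without C269S replicate 2.

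In C269S against IDH1mt, the comparison of the mutant with and without the cysteine change, 6 of the 97 rose, 3 fell and 88 did not pass, which is 9.28%, where 4.9% of all genes tested passed. The medians of the 5 lists lay between -0.11 and 0.01. CDH13 rose to 458 ± 5.39 CPM in C269S cells, against 357 ± 11.5 CPM in IDH1mt cells (log2 fold 0.36, SE 0.05, adjusted p = 1e-05 in edgeR). HAS2 rose to 39.8 ± 6.07 CPM, against 26.4 ± 1.81 CPM (0.59, SE 0.10, adjusted p = 0.00011 in edgeR). BIRC3 rose to 96.8 ± 9.88 CPM, against 69.0 ± 2.13 CPM (0.49, SE 0.08, adjusted p = 0.00014 in edgeR). LAMA4 rose to 33.5 ± 3.25 CPM, against 24.8 ± 0.459 CPM (0.44, SE 0.09, adjusted p = 0.0015 in edgeR). CADM4, a relative of CADM1, rose to 20.5 ± 0.633 CPM, against 14.6 ± 0.641 CPM (0.49, SE 0.11, adjusted p = 0.0066 in edgeR), and ITGAX to 99.2 ± 2.40 CPM, against 80.5 ± 2.06 CPM (0.30, SE 0.07, adjusted p = 0.012 in edgeR).

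The genes that fell in C269S against IDH1mt were TNFAIP2, CEMIP and the desmosomal cadherin DSG2. TNFAIP2 fell to 92.4 ± 4.55 CPM in C269S cells, against 132 ± 5.80 CPM in IDH1mt cells (log2 fold -0.51, SE 0.07, adjusted p = 3.2e-06 in edgeR). CEMIP fell to 305 ± 11.1 CPM, against 366 ± 20.5 CPM (-0.26, SE 0.05, adjusted p = 0.0026 in edgeR). DSG2 fell to 67.4 ± 3.47 CPM, against 81.7 ± 1.74 CPM (-0.28, SE 0.08, adjusted p = 0.036 in edgeR). ST8SIA4 averaged 5.27 ± 0.185 CPM in C269S and 3.49 ± 0.470 CPM in IDH1mt cells and did not pass (0.60, adjusted p = 0.058 in edgeR). Calls that 1 library decided were those of DSG2, CADM4 and ITGAX. DSG2 had adjusted p = 0.13, 0.13 and 0.095 in edgeR without IDH1mt replicate 1, 2 and 3, and 0.14 and 0.13 without C269S replicate 1 and 3. The CADM4 call was lost without IDH1mt replicate 3 (adjusted p = 0.052 in edgeR). That of ITGAX was lost without IDH1mt replicate 1, IDH1mt replicate 3 and C269S replicate 1 (0.072, 0.08 and 0.053, edgeR adjusted p). The count that fell was 5 without PCDH replicate 3, where the count over all genes also went from 440 to 635 lower.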

How the data were processed

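Bulk RNA sequencing covered 9 U87 libraries in 3 groups of 3, grouped by the sample titles. The deposited counts are whole reads per gene, and the submitters' processing notes name HISAT2 2.0.5, featureCounts 1.5.0-p3, GRCh38 and hg38. The deposited FPKM values, named so per the file headers, are by that unit's definition scaled to gene length and library total. By their names, the columns Control, mt and CS belong to PCDH, IDH1mt and IDH1mt C269S.

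The 8 members and the 5 gene lists were chosen with earlier results of these data known. Genes were filtered with filterByExpr, which kept 16874, scaled by TMM and fitted over all 9 libraries with 1 mean per group in edgeR 4.0.16 under R 4.3.3 (robust quasi-likelihood F test, two-sided, Benjamini-Hochberg adjustment over all genes). Genes at an adjusted p under 0.05 were called. The SE of a log2 fold change is its size over the square root of the F statistic. With 19108925 to 24803711 reads per library, 1 CPM is about 20 reads, and counting error covers sampling of reads only. The procedure was tested on simulated counts: 100 genes changed 1.5-fold and 100 changed 2-fold gave 57% and 68% recovered in IDH1mt against PCDH, 58% and 76% in C269S against PCDH, and 57% and 75% in C269S against IDH1mt. Only these genes were changed, far fewer than the 2375 called in IDH1mt against PCDH, so the shares need not carry over to the data. False calls among the unchanged genes are not given here.

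Named were the 8 members, IDH1, the cell type markers, overlapping genes, the 5 genes most alike to VCAM1, CD24 and CD44, and up to 4 called genes per list and comparison with the lowest adjusted p. Other names are marked as chosen after their values were seen. A few list genes and markers are not reported here. Log2 CPM for correlations used a prior count of 2. Alternatives were DESeq2 size factors, library size alone, no filter, a filter at 1 CPM in 3 libraries, a replicate block, only the 6 libraries compared, DESeq2 1.42.0, limma 3.58.1 on log2 FPKM with a pseudocount of 1 or of 0.1, and each library left out in turn.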

Additional observations from a re-analysis of the deposited data

How the results depend on the processing

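Among the 8 adhesion molecules under the 18 alternatives, folds near 0 in C269S against PCDH changed sign: ALCAM in 1, MCAM in 2, NCAM1 in 1 and VCAM1 in 3 alternatives had the opposite sign. Counts over all genes and over the 5 lists moved more. Genes called lower in IDH1mt against PCDH numbered 1164, against 742 and 733 by limma on log2 of FPKM plus 1 and plus 0.1. In C269S against PCDH, 149 genes were higher and 90 lower, against 91 and 54 with the 6 libraries alone, 57 and 28 with FPKM plus 1, and 59 and 28 with FPKM plus 0.1, and DESeq2 called 232 higher. Of the list genes, 1 was lower there, against 2 with no filter and 0 by limma with either pseudocount, where 11 had an unadjusted p under 0.05 (13 in edgeR, where DESeq2 also called 1). In C269S against IDH1mt, 387 genes were higher and 440 lower, against 585 higher with the 6 libraries alone, 182 and 261 with FPKM plus 1, and 192 and 253 with FPKM plus 0.1. The cause of these shifts was not tested. With library size alone in place of TMM, the share of called genes that were higher was 35.2%, against 51.0%, in IDH1mt against PCDH, and 60.1%, against 46.8%, in C269S against IDH1mt. Leaving out 1 library gave 860 to 1574 higher and 745 to 1474 lower genes in IDH1mt against PCDH (list genes 12 to 20 and 7 to 12), 65 to 548 and 38 to 355 in C269S against PCDH (3 to 9 and 1 to 3), and 189 to 609 and 258 to 635 in C269S against IDH1mt (4 to 7 and 2 to 5). The highest count over all genes in each of these ranges came without PCDH replicate 3. Same-numbered libraries did not deviate alike from their group means: 0 of 9 such pairs had a correlation over 0.1 (range -0.087 to 0.056). This cannot show whether they were prepared together, which the labels do not say. With the replicate block, 1043 and 944 genes were called in IDH1mt against PCDH, 111 and 61 in C269S against PCDH and 276 and 329 in C269S against IDH1mt, higher and lower. Of the values of single named genes under the alternatives, 594 kept their side of the threshold and 36 lost it, and none changed direction. For VCAM1, 66 reads over the IDH1mt libraries limit the precision of its fold.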
